A study of Mus musculus with 12 samples.

Results

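The chemokine receptors Ccr1, Ccr2, Ccr3, Ccr7, Ccrl2, Cx3cr1, Cxcr2, Cxcr3 and Cxcr4 were followed as a group of 9 among the 55335 genes of the count table. They were chosen by name, as rows of the table whose symbol is one of these, with earlier results of these data known, among them the counts in macrophages and the difference between the Tshr genotypes in macrophages, where Ccr3 stands out. Their genotype differences in macrophages are therefore a description, and where a receptor is said to be past the thresholds of the study, the call describes it and supports nothing. All 9 were in the table, none was listed more than once, and 8 passed the filter on low counts in macrophages and 5 in liver.

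The receptors were measured by RNA sequencing in bone-marrow-derived macrophages (BMDMs) and in livers of mice with a loxP-flanked Tshr gene, which encodes the receptor of thyrotropin (TSH). In Tshr f/f mice the floxed gene was intact, and in Tshr MKO mice it was deleted by Cre under the Lyz2 promoter, which is active in myeloid cells such as macrophages and neutrophils. BMDMs of both genotypes, from mice labelled 6 weeks old, were kept in M-CSF (10 ng/mL) for 7 days and then received TSH (1 ng/mL) for 24 h, so there was no library without TSH. Livers of both genotypes came from mice that received a high-fat diet (HFD) from 6 weeks of age for 9 weeks and were killed 5 min after insulin (1.5 U/kg) following an 8 h fast, so no liver was free of the diet or of insulin. The groups are called f/f and MKO below, and each of the 4 had n = 3 libraries. The study's methods name mice of both genotypes with n = 3 per group, and the errors below measure the spread between these libraries.

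Chemokine receptors are membrane proteins that couple to inhibitory G proteins and steer leukocytes along gradients of chemokines. Ccr1, Ccr2, Ccr3 and Cxcr2 draw monocytes, eosinophils and neutrophils to inflamed tissue. Ccr7 guides dendritic cells and lymphocytes to lymph nodes, Cxcr3 serves activated T cells, and Cxcr4 holds cells in bone marrow through its ligand Cxcl12. Cx3cr1 binds the membrane-bound chemokine Cx3cl1 and marks patrolling monocytes and many tissue macrophages. Ccrl2 is an atypical member that binds chemerin (encoded by Rarres2) without the usual migratory signal.

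Total counts ranged from 33683981 to 40954211 in BMDM libraries and from 28962878 to 40420513 in liver libraries, so 3 counts were worth 0.0733–0.0891 CPM (counts scaled to the library size) in BMDMs and 0.0742–0.1036 in livers. Tshr itself had 0, 0 and 2 counts in f/f BMDMs, 0, 0 and 5 in MKO BMDMs and 0 in all 6 livers. The deletion could thus not be checked from Tshr counts at this depth. All 10 macrophage markers passed the filter on low counts in both tissues, and in BMDMs their summed level was 15268–17947 CPM in f/f and 20455–30132 CPM in MKO. Lyz2, whose promoter drives Cre, made up most of that sum in every library but f/f replicate 3. It was at 8870.7, 9843.5 and 8773 CPM in f/f and 16149, 14537 and 22320 CPM in MKO. Without Lyz2 the sum was 6397–9174 CPM in f/f and 5918–7811 CPM in MKO, and 4 of the 10 markers had a log2 fold change under 0. Of the 8 hepatocyte markers, all passed the filter in liver. The scaling factor (TMM) of f/f BMDM replicate 3 was 0.738, against 0.993–1.114 in the other 5 BMDM libraries, and that of liver f/f replicate 1 was 0.891, against 0.976–1.047 in the other 5 livers. The study also lists liver counts of several cytokine receptors by library, and there the libraries labelled MKO stand under the heading of the wild-type group and the reverse. In livers labelled MKO the myeloid genes Itgam (log2 fold change -1.06, SE 0.70), Adgre1 (-0.25, SE 0.50) and Itgax (-0.62, SE 1.37) had lower means, and none was past the thresholds or had separate groups. Lyz2 was at 27.7, 59.9 and 44.7 CPM in livers labelled f/f and at 1.56, 106.5 and 43.7 CPM in those labelled MKO. The cause of the low value in MKO replicate 1 was not tested. Directions in liver below follow the sample labels, and the groups are called livers labelled f/f and livers labelled MKO.

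Of the 9 receptors, 8 had an entry in the RefSeq promoter table (GRCm38.p6), and Ccr7 had none. The 250 bases before the start site were searched on both strands for the NF-kappa B motif, for the AP-1 motif TGANTCA, for the STAT motif TTCNNNGAA (GAS) and for the cAMP response element TGACGTCA. The upstream windows of Ccr3, Ccr2 and Ccrl2 are shown because Ccr3 and Ccr2 are the neighbouring genes that were higher in MKO BMDMs and Ccrl2 is the receptor with the most counts there that was lower. Capitals mark matches to a motif. The windows lie at chr9:124021721-124021970 (plus strand), chr9:124101933-124102182 (plus strand) and chr9:111057519-111057768 (minus strand).

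Ccr3: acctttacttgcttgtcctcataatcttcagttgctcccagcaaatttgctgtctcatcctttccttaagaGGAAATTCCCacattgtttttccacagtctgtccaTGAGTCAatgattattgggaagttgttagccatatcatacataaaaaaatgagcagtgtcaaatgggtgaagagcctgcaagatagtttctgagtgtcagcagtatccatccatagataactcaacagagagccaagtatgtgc
Ccr2: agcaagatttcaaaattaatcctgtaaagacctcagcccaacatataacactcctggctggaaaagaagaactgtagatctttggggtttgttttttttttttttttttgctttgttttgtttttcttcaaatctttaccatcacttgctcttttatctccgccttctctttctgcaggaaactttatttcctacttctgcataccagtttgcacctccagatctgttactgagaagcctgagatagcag
Ccrl2: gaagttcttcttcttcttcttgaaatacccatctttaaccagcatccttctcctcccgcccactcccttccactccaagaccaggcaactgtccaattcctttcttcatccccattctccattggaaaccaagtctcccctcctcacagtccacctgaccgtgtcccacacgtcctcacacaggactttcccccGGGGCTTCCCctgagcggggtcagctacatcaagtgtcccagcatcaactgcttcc

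The Ccr3 window held a match to the NF-kappa B motif that began 179 bases before the start site and a match to the AP-1 motif that began 144 bases before it. The Ccrl2 window held a match to the NF-kappa B motif that began 56 bases before the start site. The Ccr2 window held no match, nor did those of the other 5 receptors with an entry or the windows of the other Ccrl2 start sites. Start sites here are those of RefSeq. By the gene coordinates given below, most of the Ccr2 window lay inside the gene, which begins at 124101950. The Cxcr3 window lay partly inside its gene and that of Cx3cr1 wholly. Of the other Ccrl2 start sites, the window at 111057245-111057494 lay wholly inside the gene and that at 111057271-111057520 nearly so. The Cxcr2 window and the Ccrl2 window shown touched their genes only at the edge. The lack of a match therefore covers these windows only. Among all 32851 windows of this length in the table, 5.93% held the NF-kappa B motif, 6.75% the AP-1 motif, 7.02% the GAS motif and 1.55% the cAMP response element. A match is a description of the letters and not of binding.

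In BMDMs treated with TSH, Ccr3, Ccr2 and Cxcr4 were higher and Ccr7 and Ccrl2 were lower in MKO than in f/f at the thresholds of the study, at least 2-fold with p under 0.05 before adjustment, in edgeR's quasi-likelihood test. Cx3cr1 and Cxcr3 had higher means in MKO and did not pass, Ccr1 varied as much within as between genotypes, and Cxcr2 was almost absent. Thus 3 of the 8 receptors that passed the filter were past the thresholds as higher, where 3.3% of the 15372 genes tested were, and 2 as lower, where 5.52% of genes were. With Benjamini–Hochberg adjustment edgeR called 0% of the genes at an adjusted p under 0.05, with 1567 lower and 1189 higher genes at an unadjusted p under 0.05, whereas DESeq2 called 1100 at an adjusted p under 0.05. BMDM libraries with all MKO values above all f/f values were found for 4 receptors (14.8% of genes), and the reverse for 1 (14% of genes). Since the receptors were chosen with this contrast known, these counts are not evidence about them. In bulk RNA, fewer cells of a type and less RNA per cell cannot be told apart.

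**Figure D1:**
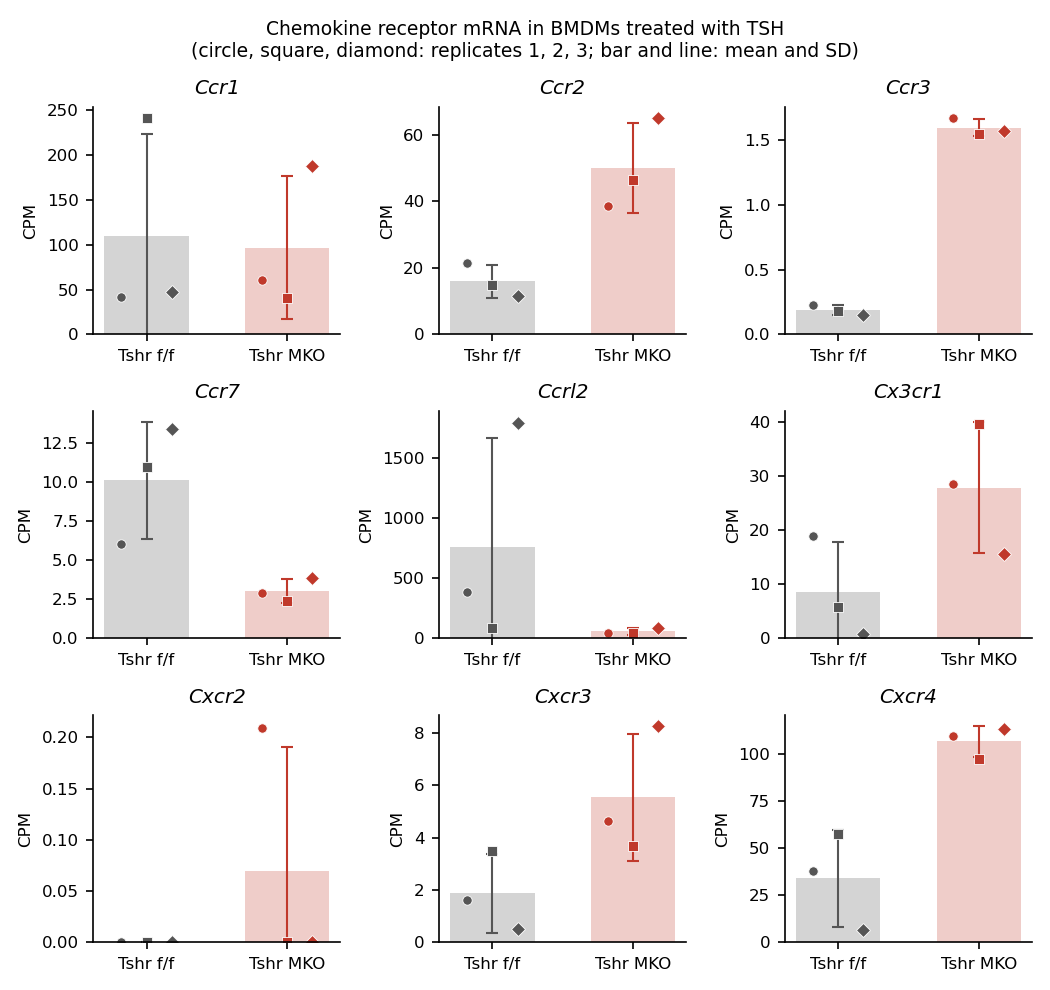
CPM (with TMM factors) of each receptor in the 3 f/f (grey) and the 3 MKO (red) BMDM libraries, where points are replicates, bars the mean and lines the SD. Ccr2, Ccr3, Cxcr3 and Cxcr4 lie higher in every MKO library than in any f/f library, Ccr7 lies lower, and Ccrl2 in f/f ranges from 87.9 to 1790.4 CPM.

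Ccr3 (ENSMUSG00000035448, chromosome 9, 124021972–124031689, plus strand, GRCm38), the eotaxin receptor of eosinophils, had 9, 8 and 4 counts in f/f BMDMs and 64, 58 and 65 in MKO BMDMs. The exact 95% Poisson intervals reached 17.1 counts at most in f/f and 44.0 at least in MKO, which covers counting error only. In CPM with TMM factors the f/f libraries were at 0.226, 0.183 and 0.154 and the MKO libraries at 1.67, 1.55 and 1.57. The libraries of each genotype lay close together, and those of MKO were all higher. The log2 fold change was 3.05 (SE 0.34), or 8.29-fold, the greatest size among the receptors that were higher, and it lay between 2.95 and 3.23 when each library was left out in turn. Ccr3 passed the filter on low counts only through the MKO libraries, and even there it was the lowest receptor per length other than Cxcr2, at 0.360 ± 0.015 CPM per kb (SD, n = 3, 12-library scale).

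Among 8 eosinophil markers, Siglecf was the 1 that passed the filter in BMDMs, and it moved in the same direction, with 1.33, 0.252 and 0.461 CPM in f/f and 3.0, 1.92 and 2.29 CPM in MKO (log2 fold change 1.81, SE 0.62). Siglecf encodes a lectin of eosinophils that some macrophages also make. The summed level of the 8 markers was 0.550–1.58 CPM in f/f and 2.40–3.26 CPM in MKO, and without Siglecf it was 0.154–0.298 CPM and 0.261–0.506 CPM. Prg3, Ear1 and Ear6 were at 0 in all 6 libraries. The granule protein genes Prg2 and Epx had at most 4 and 8 counts, and Il5ra at most 6. The part of eosinophils in the Ccr3 value was not tested.

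Ccr2 (ENSMUSG00000049103, chromosome 9, 124101950–124113557, plus strand), the receptor of Ccl2 that brings monocytes out of bone marrow, was at 21.3, 14.7 and 11.7 CPM in f/f BMDMs and at 38.6, 46.2 and 65.0 CPM in MKO BMDMs. Every MKO library was higher than any f/f library, with a log2 fold change of 1.65 (SE 0.29) that lay between 1.41 and 1.94 with each library left out. Of the 7 monocyte markers, Ly6c2 (log2 fold change -2.69) and Plac8 (-1.35) were past the thresholds in the opposite direction. Chil3, a further marker, had a log2 fold change of 0.20 (SE 0.37). The summed level of the 7 markers overlapped, at 2634–5093 CPM in f/f and 2831–3942 CPM in MKO, and was mostly that of Fn1, which stromal cells and hepatocytes also make. Without Fn1 it was 315.0–1137 CPM in f/f and 146.6–271.3 CPM in MKO, and without Fn1 and Ly6c2 it was 110.8–229.9 and 105.5–160.6 CPM. Ly6c2 alone was at 354, 204 and 908 CPM in f/f and 55.6, 41.1 and 130 CPM in MKO. The part of monocytes in the Ccr2 value was not tested.

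Ccr1 (ENSMUSG00000025804, chromosome 9, 123962124–123968692, minus strand), a receptor of Ccl3 and Ccl5, was at 41.4, 242 and 47.8 CPM in f/f BMDMs and at 61.0, 41.05 and 188 CPM in MKO BMDMs. A single library of each genotype was far higher than the others, and the groups overlapped, with a log2 fold change of -0.19 (SE 0.86). Its sign changed with the library left out, from -1.11 without MKO replicate 3 to 1.12 without f/f replicate 2.

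Ccr1, Ccr3 and Ccr2 lie in a cluster of receptor genes on chromosome 9 with Cxcr6, Xcr1 and Ccr1l1. Cxcr6 (chromosome 9, 123806475–123811760) had a log2 fold change of -0.86 (SE 0.59). Xcr1 and Ccr1l1 did not pass the filter, with means of at most 0.114 CPM. Of these 6 genes, Ccr3 and Ccr2 were past the thresholds, both as higher, and none was past them as lower.

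**Figure D2:**
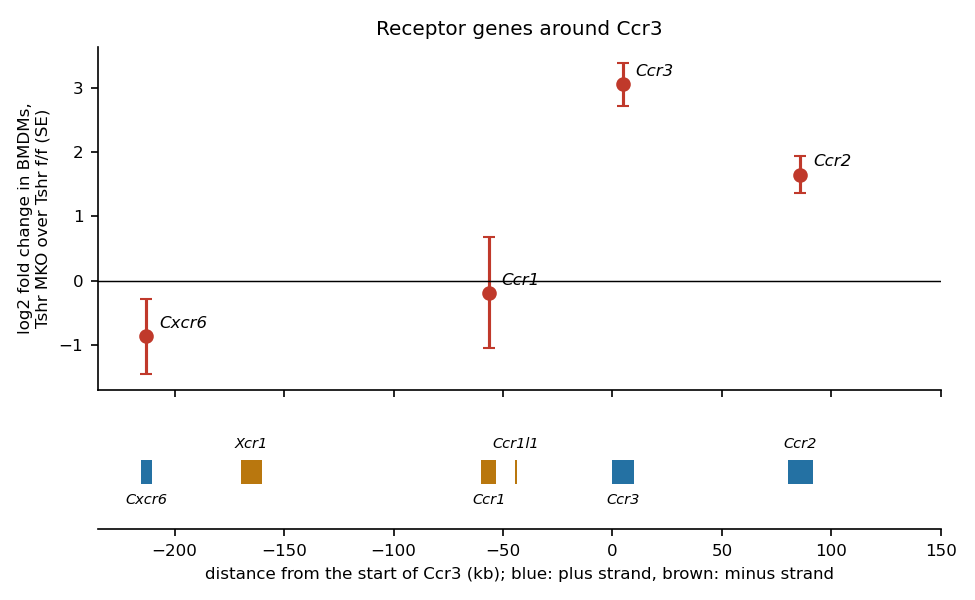
Upper panel, log2 fold change (MKO over f/f) with its SE in BMDMs of the receptor genes around Ccr3 that passed the filter on low counts. Lower panel, the genes to scale by distance in kb from the start of Ccr3, coloured by strand. Ccr3 lies at 3.05 and Ccr2 at 1.65, with Ccr1 at -0.19 and Cxcr6 at -0.86.

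Ccr7 (ENSMUSG00000037944, chromosome 11, 99144196–99155077, minus strand), the lymph node homing receptor, was at 6.03, 10.9 and 13.4 CPM in f/f BMDMs and at 2.87, 2.37 and 3.83 CPM in MKO BMDMs. All MKO libraries were lower, with a log2 fold change of -1.74 (SE 0.36), and it lay between -1.98 and -1.48 with each library left out. When all 12 libraries shared a fit, the log2 fold change of Ccr7 was -1.72 and no longer passed the thresholds.

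Ccrl2 (ENSMUSG00000043953, chromosome 9, 111054486–111057519, minus strand), the atypical chemerin receptor, had the highest mean level per length of the group in f/f BMDMs, and was at 386, 87.9 and 1790.4 CPM. In f/f replicate 2 Ccr1 had the higher level per length, at 61.9 CPM per kb against 24.5 for Ccrl2 (12-library scale). In MKO BMDMs it was at 41.2, 44.6 and 88.3 CPM, so the highest MKO library just passed the lowest f/f library. In CPM without TMM factors the groups were separate. The log2 fold change was -3.70 (SE 1.09), or 12.99-fold lower, and it was -2.04 without f/f replicate 3, still past the thresholds. Ccrl2 took 75.2%, 20.8% and 95.7% of the counts of the 9 receptors in the f/f libraries and 14.3%, 16.1% and 18.2% in the MKO libraries.

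Cx3cr1 (ENSMUSG00000052336, chromosome 9, 119901616–120069879, minus strand), the fractalkine receptor, was at 19.0, 5.75 and 0.806 CPM in f/f BMDMs and at 28.5, 39.8 and 15.5 CPM in MKO BMDMs. The lowest MKO library was under the highest f/f library, and the log2 fold change of 1.71 (SE 0.96) did not pass the thresholds. It was 1.18 without f/f replicate 3 and 3.08 without f/f replicate 1, where it passed. The annotated gene spans other genes on the same strand, among them Csrnp1 and Gorasp1, so its count and its value per length are uncertain.

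Cxcr4 (ENSMUSG00000045382, chromosome 1, 128588199–128592293, minus strand), the Cxcl12 receptor, was at 37.9, 57.9 and 6.605 CPM in f/f BMDMs and at 109.6, 97.8 and 114 CPM in MKO BMDMs. The MKO libraries lay close together and all higher, with a log2 fold change of 1.65 (SE 0.68). This call was the nearest to the threshold of p: it was lost with a filter at a mean of 10 counts and without f/f replicate 1 or any MKO replicate. Without f/f replicate 3, the lowest library, the log2 fold change was 1.16. Cxcr3 (ENSMUSG00000050232, chromosome X, 101731535–101734269, minus strand), the receptor of Cxcl9 and Cxcl10, was just outside, at 1.61, 3.50 and 0.499 CPM in f/f and 4.65, 3.68 and 8.27 CPM in MKO. Its groups were separate, though barely, with a log2 fold change of 1.55 (SE 0.68), and its raw counts overlapped. Of 8 T cell markers, 4 had a log2 fold change above 0, with Cd28 past the thresholds (2.44), and their summed level overlapped, at 20.9–43.8 CPM in f/f and 30.4–69.0 CPM in MKO. Their part in the Cxcr3 value was not tested.

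Cxcr2 (ENSMUSG00000026180, chromosome 1, 74153989–74161246, plus strand), the neutrophil receptor of Cxcl1 and Cxcl2, had 0 counts in 5 of the BMDM libraries and 8 in MKO replicate 1, and was not tested there. Among the f/f libraries, replicate 3 was the lowest for 5 of the 9 receptors, Ccr2, Ccr3, Cx3cr1, Cxcr3 and Cxcr4, and the highest for 2, Ccr7 and Ccrl2.

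Per length of exon and on a scale set over the 12 libraries, the order of the receptors differed between genotypes. In f/f BMDMs, Ccrl2 (213.9 ± 257.9 CPM per kb, SD, n = 3) stood first, followed by Ccr1 (28.4 ± 29.03), Cxcr4 (13.8 ± 10.4), Ccr7 (3.74 ± 1.38), Ccr2, Cx3cr1, Cxcr3, Ccr3 and Cxcr2. The ranges of neighbours overlapped down to Cxcr3, which was above Ccr3 in every library. In MKO BMDMs, Cxcr4 (43.7 ± 3.7) stood first, followed by Ccr1 (25.4 ± 21.2), Ccrl2 (16.5 ± 7.7), Ccr2 (5.46 ± 1.54), Cx3cr1, Cxcr3, Ccr7, Ccr3 and Cxcr2. The ranges of Cxcr4 and Ccr1 overlapped, as did those of Ccr1 and Ccrl2.

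In livers of HFD-fed mice, Ccr2 was the receptor past the thresholds, and it was lower in livers labelled MKO. The other 4 receptors that passed the filter, Ccrl2, Cx3cr1, Cxcr2 and Cxcr4, did not pass the thresholds, and Ccr1, Ccr3, Ccr7 and Cxcr3 were too low to be tested. Thus 1 of 5 was past the thresholds as lower, where 0.856% of 15062 genes were, and 0 of 5 as higher, where 0.69% were. At an adjusted p under 0.05 edgeR called 0% of genes in liver, with 780 lower and 794 higher at an unadjusted p under 0.05, and DESeq2 called 220. Ccr2 was also the 1 receptor of the 5 whose labelled MKO libraries all lay lower (7.74% of genes did so), and none had them all higher (9.6% of genes).

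Ccr2 was at 2.91, 2.78 and 1.16 CPM in livers labelled f/f and at 0.754, 0.738 and 1.13 CPM in livers labelled MKO. The groups were separate by a narrow margin, between 1.16 and 1.13 CPM. The log2 fold change was -1.39 (SE 0.43, edgeR adjusted p = 0.368, lower in 3 of 3 libraries). The call was lost without MKO replicate 1 (-1.30) and with the first letter of the sample identifier as a covariate (-0.99). That letter was A for replicates 1 and 2 of the f/f group and replicate 3 of the MKO group, and B for the rest, and within each letter every labelled MKO liver was lower than every labelled f/f liver.

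All 7 monocyte markers had a log2 fold change under 0 in liver, with a median of -0.58 against -0.01 over all genes tested. Chil3 was past the thresholds (-3.13), where 0.856% of all genes tested were as lower. Chil3 was at 11.1, 3.12 and 1.73 CPM in livers labelled f/f and at 0.531, 0.548 and 0.743 CPM in those labelled MKO. Without Fn1, the summed level of the monocyte markers was 22.7–56.3 CPM in livers labelled f/f and 14.8–35.3 CPM in those labelled MKO. Neutrophil markers were lower in 8 of 9 tested, and Ngp and Ltf were past the thresholds, with 22.6 and 15.6 CPM in f/f replicate 1, which held the most. The lean was not particular to these lists, as macrophage markers were lower in 9 of 10 tested and dendritic cell markers in 5 of 6. B cell markers were lower in 1 of 4 and sinusoidal endothelial markers in 2 of 6. The part of monocytes, neutrophils or the other cell types in the Ccr2 value was not tested.

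**Figure D3:**
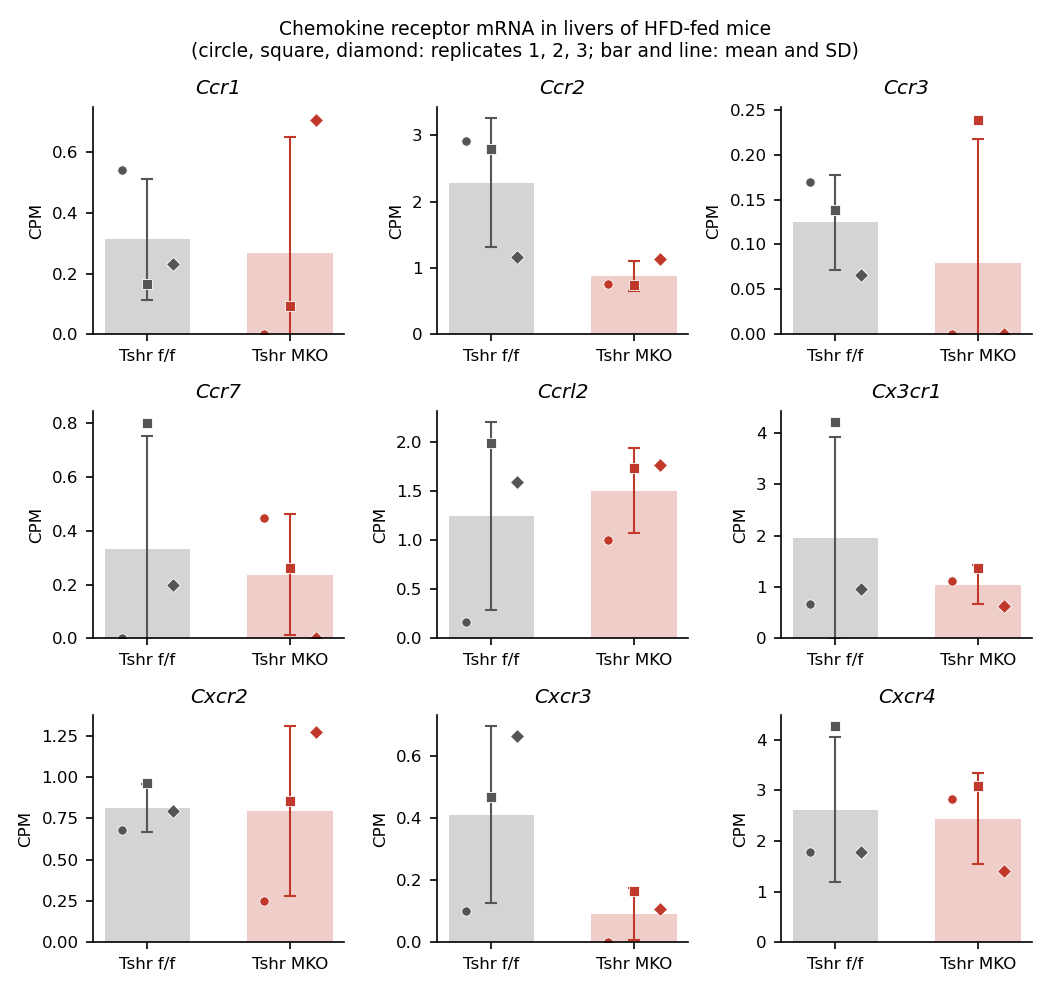
CPM (with TMM factors) of each receptor in the 3 livers labelled f/f (grey) and the 3 labelled MKO (red), where points are replicates, bars the mean and lines the SD. The highest value is 4.27 CPM, and Ccr2 is the receptor whose groups are separate.

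Cxcr4 had the highest level per length in liver in both genotypes, at 1.96 ± 1.09 CPM per kb in livers labelled f/f and 1.85 ± 0.71 in those labelled MKO (SD, n = 3, 12-library scale), and every library of each group was above every value of the next receptor, Ccrl2. In CPM of the liver fit Cxcr4 was at 1.79, 4.27 and 1.79 in livers labelled f/f and at 2.82, 3.10 and 1.42 in those labelled MKO (log2 fold change -0.10, SE 0.46, edgeR adjusted p = 0.969). Cxcr2 was at 0.677, 0.965 and 0.796 CPM and at 0.251, 0.857 and 1.27 CPM, respectively (-0.05, SE 0.58, edgeR adjusted p = 0.988). The groups of both genes overlapped.

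Ccrl2 was at 0.169, 1.98 and 1.59 CPM in livers labelled f/f and at 1.01, 1.74 and 1.77 CPM in those labelled MKO, where f/f replicate 1 was far below the rest (log2 fold change 0.26, SE 0.74, edgeR adjusted p = 0.941). Cx3cr1 was at 0.677, 4.22 and 0.962 CPM and at 1.12, 1.38 and 0.637 CPM, respectively, where f/f replicate 2 was far above the rest (-0.90, SE 0.73, edgeR adjusted p = 0.717). Both signs turned without that library, to -0.26 for Ccrl2 and 0.36 for Cx3cr1. Liver f/f replicate 1 also held the least of the stellate cell and sinusoidal endothelial markers, 32.1 and 46.4 CPM in sum, against 100.3–259 CPM and 109–170 CPM in the other 5 livers.

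Ccr3 had 5, 5 and 2 counts in livers labelled f/f and 0, 10 and 0 in those labelled MKO, so a genotype difference was not detectable at this depth. Ccr1 had 16, 6 and 7 counts and 0, 4 and 20 counts, respectively. Ccr7 had 0, 29 and 6 counts and 16, 11 and 0 counts. Cxcr3 had 3, 17 and 20 counts and 0, 7 and 3 counts. All 4 genes overlapped between the groups. With 3 counts taken as the floor, a count of 0 in a liver was read as at most 0.0742–0.1036 CPM. The exact 95% Poisson interval of a count of 0 reaches 3.69 counts.

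To compare the tissues, f/f BMDMs were set against livers labelled f/f in a fit of all 12 libraries, in which cell source, culture, TSH, diet and insulin differ together and cannot be told apart. At an adjusted p under 0.05 and at least 2-fold, 5 of the 9 receptors were higher in BMDMs, where 24.7% of 17246 genes were, and 1 was lower, where 29.2% were. Since the BMDM counts were known when the receptors were chosen, these calls and their p-values are a description and support nothing. Ccrl2 (log2 difference 8.34, SE 1.25, edgeR adjusted p = 0.000153) and Ccr1 (7.59, SE 1.2, edgeR adjusted p = 0.000221) differed most, followed by Ccr7 (3.98, SE 1.01, edgeR adjusted p = 0.00483), Cxcr4 (2.80, SE 0.67, edgeR adjusted p = 0.00328) and Ccr2 (1.91, SE 0.36, edgeR adjusted p = 0.000731). The values of Cxcr4 overlapped between the tissues, with f/f BMDMs down to 2.69 CPM per kb and livers labelled f/f up to 3.22. Cxcr2 had 1.10 CPM (mean of 3) in livers labelled f/f and 0 counts in f/f BMDMs, which makes it at least 12.97-fold lower there, taking 3 counts per library as the floor (edgeR adjusted p = 0.00186).

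Cx3cr1 (log2 difference 1.23, SE 0.94, edgeR adjusted p = 0.264), Cxcr3 (1.29, SE 0.84, edgeR adjusted p = 0.193) and Ccr3 (-0.28, SE 0.94, edgeR adjusted p = 0.808) did not pass. In the same contrast between MKO groups these 3 were higher in BMDMs, with log2 differences of 3.83, 4.98 and 3.26 (edgeR adjusted p = 0.00687, 0.00122 and 0.00876). The MKO BMDM libraries of these 3 genes are among those the choice of the receptors used. Ccr3 was at 0.138 ± 0.027 CPM in f/f BMDMs, 1.18 ± 0.05 in MKO BMDMs, 0.168 ± 0.070 in livers labelled f/f and 0.11 ± 0.19 in livers labelled MKO (SD, n = 3, 12-library scale).

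The genotype difference in BMDMs minus that in livers was tested across 17246 genes in the same fit, where 0.0058% passed an adjusted p of 0.05. Since the BMDM difference, known when the receptors were chosen, is a part of this contrast, the values of the receptors are a description with no test. The difference was 3.05 (SE 0.52) for Ccr2, and those of Ccr3 (3.54, SE 1.33), Cxcr3 (3.68, SE 1.29) and Ccrl2 (-3.95, SE 1.39) rested on few liver counts or on wide spreads. Of all genes, 1279 were lower and 1228 higher at an unadjusted p under 0.05, and DESeq2 called 678 at an adjusted p under 0.05.

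**Figure D4:**
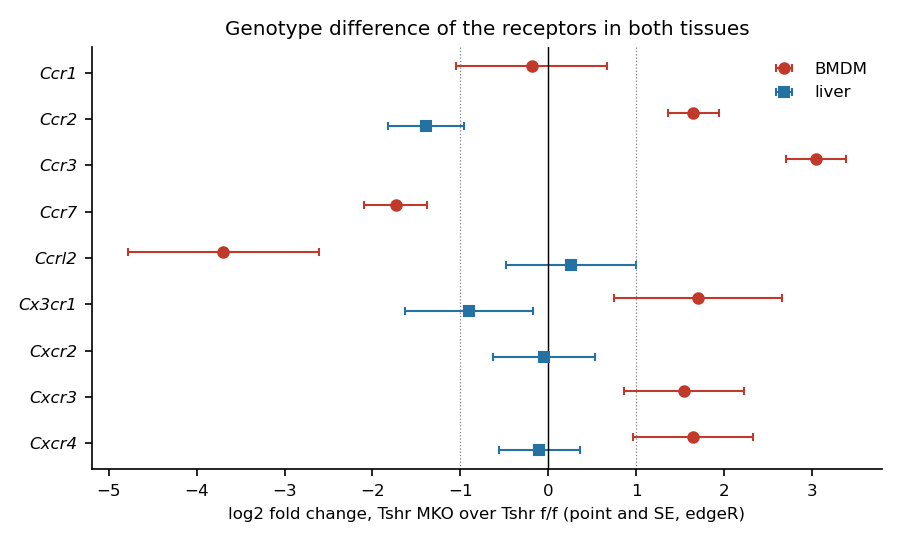
Log2 fold change (MKO over f/f, as labelled) with its SE for each receptor that passed the filter in BMDMs (circles) and in livers (squares), with dotted lines at a 2-fold difference. Ccr2 lies at 1.65 in BMDMs and -1.39 in liver, and the other 4 receptors tested in liver lie within 1 of 0.

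The genes around the receptors were taken from lists chosen with earlier results of these data known, so their counts are a description. Of 17 other chemokine receptors, 7 passed the filter in BMDMs, and Ackr3, a scavenger of Cxcl12, was the 1 past the thresholds, at 0.828, 6.85 and 2.96 CPM in f/f and 0.339, 0.240 and 0.843 CPM in MKO (log2 fold change -2.89, SE 0.87). Its groups overlapped, and the call was lost without MKO replicate 1. Of all genes tested in BMDMs 5.52% were past the thresholds as lower and 3.3% as higher, against 1 and 0 of these 7. Among the receptors with the most counts, Cmklr1, the signalling receptor of chemerin, had a log2 fold change of -0.36 (SE 0.27), with 143–294 CPM in the 6 libraries. In liver 5 passed the filter and 0 were past the thresholds (edgeR), with a log2 fold change of -0.42 for Cmklr1. Over all genes tested in liver, 0.69% were past them as higher and 0.856% as lower.

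Of 26 chemokine ligands of the 9 receptors, 20 passed the filter in BMDMs, and 11 were past the thresholds as lower in MKO and 0 as higher, against 5.52% and 3.3% of all genes tested. As this list too was chosen with earlier results known, the count is a description and no evidence about the ligands. Their median log2 fold change was -2.19, against 0.01 over all genes tested. The greatest differences were those of the Cxcr2 ligands Cxcl1 (-5.53, SE 1.29), Cxcl3 (-5.32, SE 1.54) and Cxcl2 (-4.66, SE 1.34) and of the Cxcr3 ligand Cxcl10 (-5.26, SE 1.23), whose groups did not overlap. For Cxcl3 the groups barely parted, at 15.79 CPM in f/f replicate 1 against 15.71 CPM in MKO replicate 3. Cxcl10 was at 771, 29.2 and 1088 CPM in f/f and at 15.4, 13.4 and 20.5 CPM in MKO. Leaving out each library gave 6 to 13 ligands as lower, with 7 without f/f replicate 3, 7 without MKO replicate 1 and 6 without MKO replicate 2, and 0 as higher in each. Cxcr3 and its ligand Cxcl10 thus had mean differences of opposite sign.

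In liver 17 ligands passed the filter, and Cxcl10 was the 1 past the thresholds, higher in livers labelled MKO at 2.49, 3.29 and 5.95 CPM against 1.25, 2.07 and 2.12 CPM (log2 fold change 1.10, SE 0.40, edgeR adjusted p = 0.424). Of all genes tested in liver, 0.69% were past the thresholds as higher and 0.856% as lower. The ligands with the most counts were Cxcl12, the Cxcr4 ligand, at 262–343 CPM (log2 fold change 0.00, SE 0.13), and Rarres2, which encodes chemerin, at 252–446 CPM (0.37, SE 0.15). The median over the 17 was 0.37, against -0.01 over all genes tested.

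All 30 genes of receptor signalling and desensitization passed the filter in BMDMs (median log2 fold change -0.13). Of these, 3 were past the thresholds as higher, Rgs2 (2.05, SE 0.49), Rgs18 (1.94, SE 0.69) and the G protein subunit Gng2 (1.12, SE 0.45), and 2 as lower, Rgs16 (-2.39, SE 0.36) and Gng12 (-1.0, SE 0.34), where 3.3% of all genes tested were higher and 5.52% lower. RGS proteins speed the return of G proteins to rest and so shorten the signal of chemokine receptors. Rgs2 was at 18.1, 29.04 and 6.53 CPM in f/f and at 77.4, 72.8 and 72.4 CPM in MKO, and Rgs16 at 11.3, 24.6 and 23.3 CPM and at 4.28, 4.19 and 2.82 CPM, and neither overlapped. The count was 3 without MKO replicate 1 or 2, and 2 without f/f replicate 3. In liver 0 of 29 were past the thresholds (edgeR), where 0.69% of all genes tested were as higher and 0.856% as lower. The members with the most counts, Cdc42 and Rac1, had log2 fold changes of -0.08 and 0.09.

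**Figure D5:**
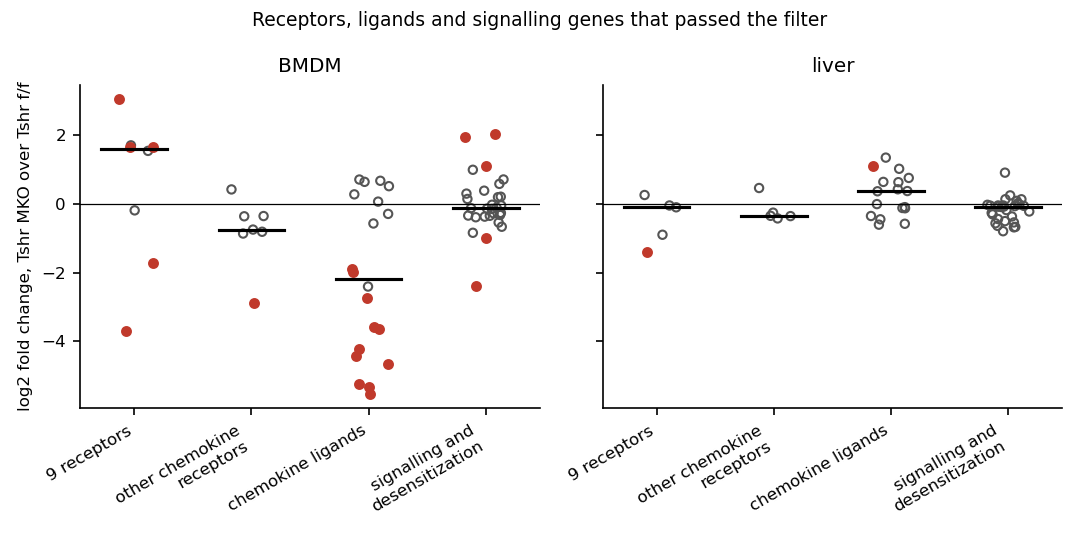
Log2 fold change (MKO over f/f, as labelled) of every gene that passed the filter in each list, in BMDMs and livers, where filled red points are past the thresholds and black lines are medians. In BMDMs the ligands lie mostly lower, with a median of -2.19, and in liver 0.37.

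The genes whose profile over the 12 libraries was most like that of a receptor were ranked by the root mean square (RMS) difference of centred log2 levels, as a description of libraries that share tissue and depth. For Ccr3 these were Gm20712 (0.197), Eef1a2 (0.243) and Gm15513 (0.244), all at low counts. For Ccrl2 they were the interferon-induced GTPase gene Gbp5 (0.454), the chemokine gene Ccl5 (0.505) and the costimulatory receptor gene Cd40 (0.561). For Ccr7 they were Fmnl2 (0.310), H2-Q4 (0.381) and Morrbid (0.411), for Cxcr4 Vsir (0.326), Susd3 (0.328) and Rnf150 (0.411), and for Ccr2 Mex3b (0.418), Trpv4 (0.457) and Cdca7l (0.459). For Cxcr3 they were Gab3 (0.283), Ptgs1 (0.331) and Arhgef4 (0.357), and for Cx3cr1 they included Havcr2 (0.557) and Ppfia4 (0.587). The nearest genes to Ccr1 were Emb (0.460), Adam8 (0.700) and Vcan (0.732), and those to Cxcr2 were Hcrtr2 (0.212), Cpeb1 (0.213) and Ighv6-3 (0.215).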

How the data were processed

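The authors deposited a table of raw read counts per gene for 12 libraries (strand-specific RNA sequencing, n = 3 per group). Per the labels, the submitters' processing notes name FastQC 0.11.2, STAR, StringTie and mm10, and the counting program is not given in the sources used here. Coordinates are those of GENCODE M21 (GRCm38), which holds 55154 of the 55335 genes listed.

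Counts were tested with edgeR 4.0.16 in R 4.3.3 (quasi-likelihood, robust, TMM factors, filterByExpr, Benjamini–Hochberg over all genes tested), per tissue for genotype and over 12 libraries for the tissue contrast and the difference between tissues. SE is the size of the log2 fold change over the square root of F. The members, lists, motifs and tests were chosen with earlier results of these data known. Named genes were the 9 receptors, Tshr, of each other list those past the thresholds (up to 4 per direction, or the 2 with the most counts where fewer than 2 passed), neighbours in the chromosome 9 cluster, and the 3 genes most alike each receptor by log2(CPM + 0.5). The alternatives were RLE scaling, no filter, a mean of 10 counts, DESeq2 1.42.0, the MARS model of the study on summed counts with 0 set to 0.5, all 12 libraries in 1 fit, a replicate block, a sample-ID letter covariate and each library left out. Same-numbered libraries did not deviate together in every pair (correlations of 0.136, 0.0273 and 0.113 in BMDMs and -0.0655, 0.252 and -0.0291 in livers), so the numbers were not taken as pairs. Some genes that this rule names are not reported here. Intervals and floors cover counting error only. The test scripts were tested on simulated data with known answers. Figures were drawn with matplotlib 3.10.9 in python 3.11.15.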

Additional observations from a re-analysis of the deposited data

Results flagged for a closer look

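By the sample labels, Ccr2 had genotype differences in opposite directions in the tissues. Every Tshr MKO BMDM library was higher than every Tshr f/f BMDM library, as for 14.8% of genes tested. Every liver labelled Tshr MKO was lower than every liver labelled Tshr f/f, as for 7.74% of genes, by a narrow margin (1.13 against 1.16 CPM). The liver call was lost without MKO replicate 1 and with the first letter of the sample identifier as a covariate. The genotype difference in BMDMs minus that in livers was 3.05 on the log2 scale (SE 0.52). It is a description with no test, since the BMDM difference was known when the receptors were chosen. Over the alternatives and libraries left out the difference lay between 2.80 and 3.36. The liver direction follows the sample labels, which the study's own listing of liver counts contradicts. With the liver labels exchanged, Ccr2 would be higher in MKO in both tissues.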

How the results depend on the processing

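Of the results for single receptors, 87 values of the log2 fold change in BMDMs, 61 in livers, 158 between tissues and 143 of the difference between tissues kept their direction and side of the threshold under the alternatives. The sign was reversed in 4, 7, 2 and 6 values, respectively. With the sign kept, 7 gained and 6 lost the call in BMDMs, and 2 lost it in livers. Between tissues 2 gained the call, as did 4 of the difference between tissues. The receptors past the thresholds in BMDMs were 5, with 4 to 8 over the alternatives (MARS on summed counts 8) and 4 to 6 with each library left out. In liver they were 1, and 2 with MARS on summed counts, 0 with the sample-ID letter and 0 to 2 with each library left out. The count between tissues stayed at 6 except in MKO, where it was 9, and it describes receptors chosen with the BMDM counts known. The receptors whose genotype difference differed between tissues were 0, and 2 with DESeq2 and 0 to 1 with each library left out, counts that describe receptors chosen on the BMDM difference. With MARS on summed counts the other chemokine receptors numbered 5 in BMDMs and 2 in liver and the ligands in liver 6. MARS on summed counts covers counting error only and leaves out the spread between libraries, so its counts do not compare with the others. All 12 libraries in 1 fit gave 0 ligands in liver. With each library left out, BMDM other receptors were 0 to 1, BMDM ligands 6 to 13, BMDM signalling genes 2 to 6, liver other receptors 0 to 1, liver ligands 0 to 3 and liver signalling genes 0 to 1.

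With each library left out the sign turned for Ccr1 in BMDMs (-1.11 to 1.12, and 0.10 with the replicate block), for Ccrl2 (-0.26 to 0.76), Cx3cr1 (-1.30 to 0.36), Cxcr2 (-0.54 to 0.38, and 0.073 with the sample-ID letter) and Cxcr4 (-0.32 to 0.45) in liver, for Cx3cr1 between tissues (-0.14 to 2.51) and for the Ccr1 difference between tissues (-0.75 to 2.34). Between tissues the sign of Ccr3 turned in MKO (3.26). The cause was not tested. With the replicate block, 6 receptors were past the thresholds in BMDMs and 1 in liver, Cx3cr1 passed in BMDMs, and the signalling genes and ligands there were 4 and 9. The samples share only a number. Genes with few counts, such as Ccr3 in liver, are limited by depth.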
